A study of Mus musculus with 24 samples.

Results

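The LPS response of RAW264.7 cells labelled *Olfml3* knockout was described from 6 libraries, 3 with PBS and 3 with LPS, of the 12 RAW264.7 libraries and the 24 libraries of the series. The libraries were chosen by their titles and not by the genotype tag, which contradicts the title in 12 of the 24 samples. Among the 6, the 3 PBS libraries titled knockout carry a wild-type tag and the 3 LPS libraries carry a knockout tag, and the 3 LPS libraries taken as wild type, whose titles name no knockout, carry a knockout tag too. The other 6 RAW264.7 libraries, 3 wild type with PBS and 3 wild type with LPS, served to test where the response differed.

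The study examined *Olfml3*, which encodes a secreted glycoprotein with an olfactomedin domain, in mouse macrophages, and sequenced poly(A) RNA of a cell line and of macrophages grown from bone marrow. RAW264.7 is a mouse macrophage-like leukemia line established from a male animal. LPS was added at 100 ng/mL for 4 h before harvest, and PBS was the control. Cells labelled knockout were made by lentiviral delivery of Cas9 and a guide RNA against *Olfml3* and grown from sorted single cells. A figure legend of the paper describes its knockout cells as single clones with *Olfml3* disrupted on both alleles. Which clone and guide the sequenced libraries hold is not given in the sources used here, so effects of the edit and of growing a line from 1 cell cannot be told apart. The paper calls the libraries biological replicates, and the sources used here do not say whether the 3 of a group came from separate cultures, so each error and p-value measures the spread between libraries.

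Lipopolysaccharide of Gram-negative bacteria is handed by Cd14 to a complex of Tlr4 and MD-2, the product of *Ly96*, on the macrophage surface. Tlr4 then signals through the adaptors Myd88 and Ticam1, which lead to NF-kappaB and MAP kinases and, by the Ticam1 arm, to Irf3 and type I interferon. Macrophages answer within hours with transcripts of cytokines, chemokines, interferon-response genes and inhibitors that limit the same signalling.

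The guide sequences against *Olfml3* are printed because they are the designed change that the label names. Both match coding sequence of exon 3 on GRCm38. The first lies at chr3:103736100-103736119 on the minus strand and the second at chr3:103736427-103736446 on the plus strand. Capitals mark the adjoining PAM, which is read from the annotated transcript sequence.

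Olfml3-1: atgtcccagagagaacgcagAGG
Olfml3-2: gctgccccgtgcctacccagGGG

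Values are FPKM, which are counts divided by the exonic gene size and by the total count of the library. Total counts were 16478616, 16026982 and 14312570 in PBS replicates 1, 2 and 3 of the cells labelled knockout, and 11638273, 13176774 and 12248263 in their LPS replicates 1, 2 and 3. At these depths 1 count of a gene with 1000 exonic bases equals 0.0607 to 0.0859 FPKM in the 6 libraries. Of 56691 genes in the table, 26740 had an FPKM above 0 in at least 1 of the 12 RAW264.7 libraries and were tested. A gene was called at an adjusted p under 0.05 (limma with Benjamini-Hochberg over the 26740 genes) if its level also differed 1.5-fold or more between the groups of 3 libraries. The adjusted p allows for the number of genes tested, the log2 fold change is the difference of group means of log2(FPKM + 0.1), and SE is its standard error.

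Macrophage markers were present in the cells labelled knockout: 9 of 10 had a mean of at least 1 FPKM, led by *Cd68* at 393 FPKM, while *Mertk* was listed at 0 in all 12 libraries. The summed level of the 9 markers was 1583, 1271 and 1296 FPKM in PBS replicates 1, 2 and 3 and 1461, 1458 and 1524 FPKM with LPS. Single macrophage genes moved both ways: with LPS *Csf1r* was called lower (-2.11 on the log2 scale) and *Adgre1* higher (1.51). In wild type the sums were 3556, 3537 and 3505 FPKM with PBS and 4184, 4144 and 4276 FPKM with LPS, above every library labelled knockout. None of the markers of T cells, B cells, neutrophils, fibroblasts, epithelial, erythroid or endothelial cells reached a mean of 1 FPKM, and the T cell markers *Cd3e*, *Cd4* and *Cd8a* were listed at 0. Among 4 dendritic cell markers *Siglech* alone passed 1 FPKM, with a mean of 5.56 FPKM, and the 4 summed to 9.62, 10.1 and 8.66 FPKM with PBS and to 2.75, 2.81 and 2.79 FPKM with LPS. The Y-linked genes *Ddx3y*, *Eif2s3y* and *Kdm5d* were listed at 0 in the 6 libraries labelled knockout, while *Eif2s3y* was at 10.9, 10.5 and 9.89 FPKM in the wild-type PBS libraries. *Uty* was at 0.01 FPKM in 1 PBS and 1 LPS library labelled knockout and at 0 in the other 4, and *Xist* was listed at 0 in all 6. Replicate 1 with PBS therefore shares the missing Y-linked transcripts of the other 5 libraries.

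Replicate 1 of the cells labelled knockout with PBS stood apart from replicates 2 and 3, and counts of calls are given with and without it. For a single gene the value without it is given where a call ended or began, or where the log2 fold change of a called gene moved by more than 0.25. Across genes, the chi-square of its counts against replicates 2 and 3 was 80.3 and 81.1 per degree of freedom, against 2.28 between replicates 2 and 3 and 1.84 to 2.72 for pairs in the other 3 groups. Of 11383 genes with a mean of at least 1 FPKM in the PBS group, replicate 1 was at least 2-fold below the mean of replicates 2 and 3 in 877 and at least 2-fold above it in 251. Replicates 2 and 3 differed at least 2-fold in 237. Its FPKM summed to 356156, against 296109 and 295256 in replicates 2 and 3 and 357349 to 361580 in the wild-type PBS libraries.

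The departure of replicate 1 followed exonic size. In genes of 1000 to 2000 exonic bases its median difference from the mean of replicates 2 and 3 was 0.49 on the log2 scale, and in genes over 8000 bases it was -0.62. The same medians between replicates 2 and 3 were 0.02 and -0.01. Replicate 1 minus wild type with PBS gave medians between 0.03 and 0.08 in all 5 size classes, while replicates 2 and 3 minus wild type ran from -0.46 in genes of 1000 to 2000 bases to 0.65 in genes over 8000 bases. The LPS libraries labelled knockout minus wild type with LPS ran from -0.40 to 0.53 over the same classes, so comparisons of level with wild type carry this size profile. In 2246 genes with a mean of at least 1 FPKM in a RAW264.7 group, replicates 2 and 3 differed at least 2-fold from wild type with PBS. Replicate 1 lay nearer to wild type in 1454 of them, which is 64.7%. The genes were picked by replicates 2 and 3, so a replicate left out of the choice tends to lie nearer to wild type. The same share was not computed for another replicate. The part of replicate 1 in any result other than by leaving it out was not tested.

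Named examples show both directions. *Ankhd1*, an ankyrin-repeat protein gene with a long transcript, was at 2.39 FPKM in replicate 1 and at 16.3 and 16.8 FPKM in replicates 2 and 3, against 13.9, 13.5 and 13.4 FPKM with LPS. *Hipk2*, a nuclear protein kinase gene, was at 2.16 FPKM in replicate 1, 12.3 and 13.1 FPKM in replicates 2 and 3, and 16.8, 18.7 and 16.1 FPKM with LPS. Wild type with PBS held *Hipk2* at 2.14, 1.99 and 2.47 FPKM, so replicate 1 lay in the wild-type range for this gene. In the other direction *Mir703* was listed at 187 FPKM in replicate 1 and at 83.0 and 64.7 FPKM in replicates 2 and 3, and *Mir99a* at 48.6, 4.80 and 4.30 FPKM; such short genes rest on few counts (61 for *Mir99a* over the 3 libraries). Among genes with at least 10 FPKM in 1 of the 3 PBS libraries, the 6 other genes farthest above were *Gm11702*, *Gm11263*, *Rps27a-ps2*, *Rpl19-ps6*, *Gm13611* and *Gm23301*, and the 6 other genes farthest below were *Gm10557*, *Mir186*, *Ighj3*, *Gm38244*, *Gm26397* and *Snora30*. With all 3 PBS libraries limma called none of these 16 genes in the LPS response, edgeR called *Hipk2* (1.14) and *Mir99a* (-2.47), and DESeq2 called *Mir99a* (-2.48). Without replicate 1, *Gm38244* turned from 0.12 to -0.75 on the log2 scale and was called lower, and *Gm23301* was called higher.

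**Figure D1:**
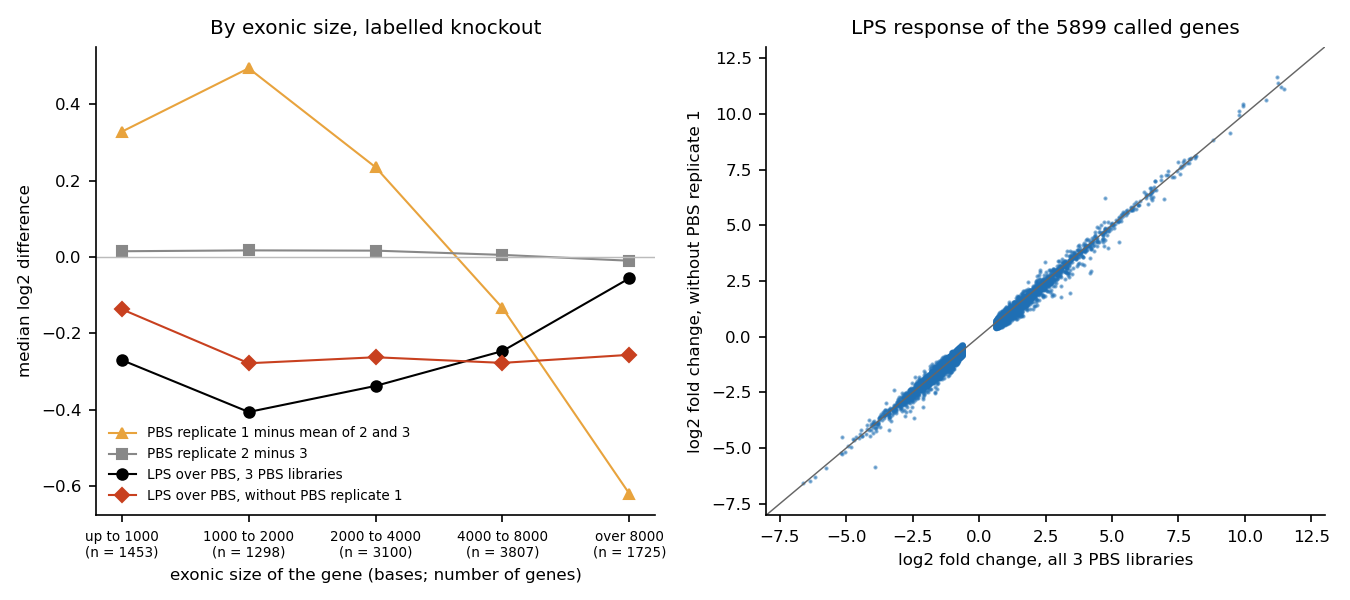
Left, the median log2 difference in 5 classes of exonic gene size (bases, with the number of genes) for PBS replicate 1 against replicates 2 and 3, for replicate 2 against 3, and for the LPS response with and without PBS replicate 1. Right, the log2 fold change of each of the 5899 called genes with all 3 PBS libraries (horizontal) and without replicate 1 (vertical), with the line of equality; the replicate 1 difference runs from 0.49 to -0.62 across classes, while the called genes lie along the line.

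LPS changed a large share of the genes tested in the cells labelled knockout. Called higher were 18 of 22 cytokine genes, 15 of 22 chemokine genes and 45 of 47 interferon-response genes, and called lower were 18 of 27 cell cycle genes. With all 6 libraries 5899 of 26740 genes were called, of which 1993 were higher with LPS (7.45%) and 3906 were lower (14.6%). Without PBS replicate 1, 5774 of 26538 genes were called, 1804 higher (6.80%) and 3970 lower (15.0%). Both fits called 5018 genes in the same direction, 85.1% of the calls with all libraries and 86.9% of those without replicate 1, and 0 genes were called in opposite directions. The fold of 56 called genes moved by more than 1.5 times when replicate 1 was left out, and the median move was 0.11 on the log2 scale.

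The balance of rises and falls depended on how libraries were scaled. FPKM divides by all counted reads, and the median log2 fold change of the 12104 genes with a mean of at least 1 FPKM was -0.22. Median-ratio scaling of the libraries before the log moved that median to 0.04, and then 2847 genes were higher (10.6%) and 2662 were lower (9.96%). Expressed genes were called more often: of the 12104 genes 1396 (11.5%) were higher and 3219 (26.6%) lower with FPKM, and 2126 (17.6%) and 2172 (17.9%) with median-ratio scaling. The counts of every gene list stand against these shares. Of the 5899 calls 4647 were kept in the same direction under that scaling, 1244 of the falls and 8 of the rises were not called, and 862 other genes were called higher. Calls named below that did not hold under this scaling are given as such. In a bulk library, fewer cells carrying a transcript and less of it per cell cannot be told apart.

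The 12 largest rises were genes of cytokines, chemokines, an itaconate-forming enzyme, 2 interferon-response proteins and a survival protein. They and the 12 falls below were taken among called genes with a mean of at least 1 FPKM in either group. At least 100 counts over the 6 libraries, and PBS and LPS libraries that do not overlap, were also required. *Il1b*, the gene of the inflammatory cytokine interleukin 1 beta, was at 0.06, 0.20 and 0.29 FPKM in PBS replicates 1, 2 and 3 and at 771, 746 and 768 FPKM with LPS. *Acod1*, whose product makes itaconate from the citrate cycle intermediate aconitate, was at 0.53, 0.55 and 1.17 FPKM with PBS and at 2153, 2114 and 2122 FPKM with LPS. The chemokine gene *Ccl22* was at 0.08, 0 and 0.06 FPKM with PBS and at 334, 356 and 340 FPKM with LPS. In these 3 genes every LPS library stood far above every PBS library, and replicate 1 lay among the low values. The log2 fold changes were 11.49 ± 0.45 (SE; 11.12 without replicate 1) for *Il1b*, 11.37 ± 0.27 for *Acod1* and 11.24 ± 0.37 for *Ccl22*, with adjusted p of 5.58e-08, 2.48e-09 and 1.93e-08 (limma, Benjamini-Hochberg). With PBS levels this close to 0 the fitted change depends on the 0.1 added before the log, and the levels are the firmer statement.

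*Ccl5*, a chemokine for T cells and monocytes, was at 0.44, 0.06 and 0.15 FPKM with PBS and at 659, 654 and 645 FPKM with LPS. Its PBS value was highest in replicate 1, and its log2 fold change went from 11.19 to 11.67 without that library. *Il27*, a subunit gene of interleukin 27, showed the same order, at 0.48, 0.06 and 0.14 FPKM with PBS and 275, 275 and 279 FPKM with LPS, with 9.94 and, without replicate 1, 10.46. The neutrophil chemokine gene *Cxcl2* was at 0.67, 0.33 and 0.14 FPKM with PBS and 426, 408 and 437 FPKM with LPS (9.94, and 10.36 without replicate 1). Smaller shifts were seen in *Il1a*, the gene of the other interleukin 1, at 10.78 and 10.63, and in *Lif*, a cytokine of the interleukin 6 family, at 8.17 and 8.09. The other 4 of the 12 were *Il6*, *Isg15*, *Ifit1* and *Bcl2a1a*, at 9.77, 9.76, 8.78 and 9.42; *Isg15* and *Bcl2a1a* were at 10.13 and 9.13 without replicate 1. *Bcl2a1a*, a survival gene of the Bcl-2 family, has near-identical neighbours, so its share of the reads is uncertain.

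**Figure D2:**
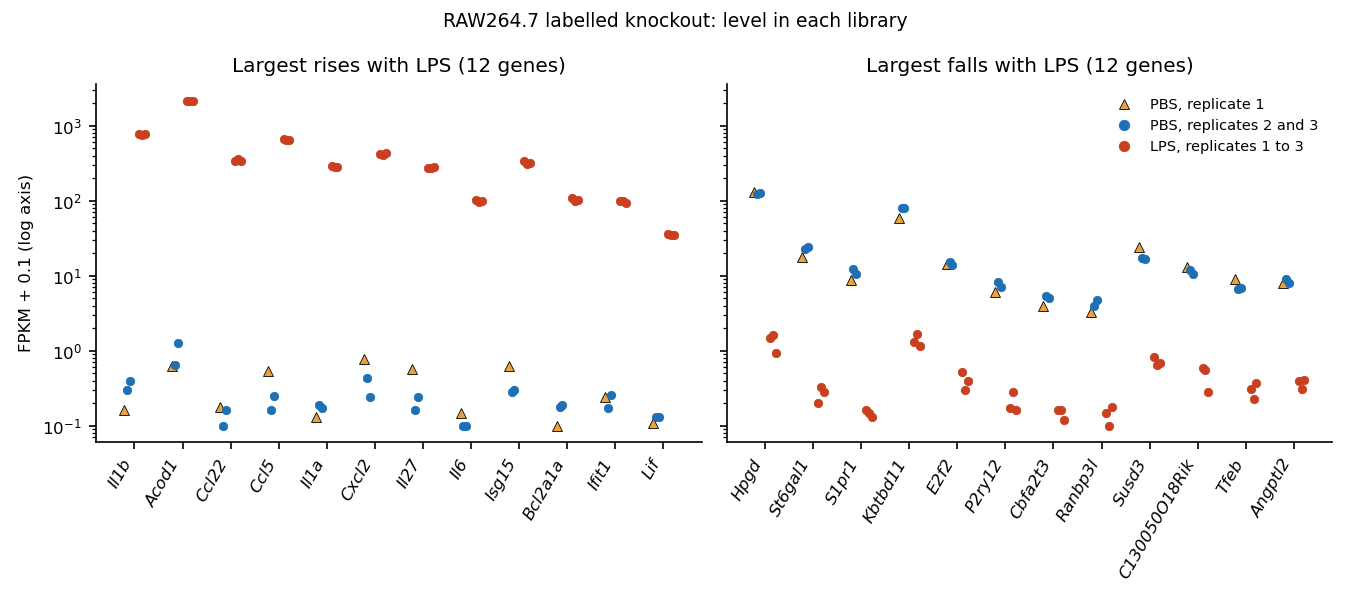
FPKM plus 0.1 on a log axis in each of the 6 libraries labelled knockout, for the 12 largest rises (left) and the 12 largest falls (right), ordered by size of the change; triangles mark PBS replicate 1. All 24 were chosen among genes whose 3 LPS libraries lie apart from the 3 PBS libraries. With PBS and LPS *Il1b* was at 0.06 to 0.29 and 746 to 771 FPKM, and *Hpgd* at 121 to 132 and 0.82 to 1.53 FPKM.

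The largest fall on the log2(FPKM + 0.1) scale was that of *Hpgd*, which encodes an enzyme that inactivates prostaglandins. It was at 132, 121 and 128 FPKM with PBS and at 1.38, 1.53 and 0.82 FPKM with LPS, so that every LPS library lay near 1 FPKM. Its mean was 102-fold lower with LPS, a log2 fold change of -6.61 ± 0.26 (SE; adjusted p = 5.75e-08, limma with Benjamini-Hochberg), and -6.58 without PBS replicate 1. *St6gal1*, a sialyltransferase gene, went from 17.9, 22.95 and 23.9 FPKM to 0.10, 0.23 and 0.18 FPKM (-6.35). *S1pr1*, the gene of a receptor for sphingosine 1-phosphate, went from 8.65, 12.3 and 10.5 FPKM to 0.06, 0.05 and 0.03 FPKM (-6.16). *P2ry12*, a receptor gene for extracellular ADP, went from 5.93, 8.04 and 6.92 FPKM to 0.07, 0.18 and 0.06 FPKM (-5.16). In the last 3 genes PBS replicate 1 was the lowest PBS value and still lay above every LPS library. With LPS levels this near 0 the order of the falls depends on the 0.1 added before the log.

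Regulators of transcription were also among the 12 falls. *E2f2*, a factor of S-phase entry, fell by 5.20 on the log2 scale, *Tfeb*, a factor for lysosomal genes, by 4.64, and *Cbfa2t3*, a corepressor gene, by 5.04. The remaining falls were *Kbtbd11* (-5.74), *Ranbp3l* (-4.82), *Susd3* (-4.75), *C130050O18Rik* (-4.72) and the secreted factor gene *Angptl2* (-4.52). Each of the 12 falls was also called without replicate 1 and under median-ratio scaling.

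Of 18 genes for the LPS receptor and proximal signalling 17 were tested, and 7 (41.2%) rose and 2 (11.8%) fell. The shares were 11.5% and 26.6% among all genes with a mean of at least 1 FPKM. The median log2 fold change was 0.55, against -0.07 over all genes tested. Without PBS replicate 1, 7 rose and 2 fell as well, and with median-ratio scaling 10 rose and 1 fell. *Lbp* was listed at 0 in all 12 libraries. *Tlr4*, the signalling receptor, named here for its role after its values were seen, was at 3.16, 5.94 and 5.53 FPKM with PBS and at 1.48, 1.68 and 1.70 FPKM with LPS. It lay lower in every LPS library, by a log2 fold change of -1.48 (-1.76 without replicate 1). *Cd14*, the co-receptor that delivers LPS, was at 135, 90.4 and 96.7 FPKM with PBS and at 397, 383 and 416 FPKM with LPS (1.92 ± 0.13, SE).

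Among the members that rose, *Ikbke*, a kinase gene of the interferon arm, was at 0.26, 0.24 and 0.27 FPKM with PBS and at 33.5, 33.4 and 34.2 FPKM with LPS, a 131-fold higher mean. *Irak2*, a kinase gene downstream of Myd88, rose from 11.2, 11.1 and 12 FPKM to 45.8, 46.3 and 44.5 FPKM, and the adaptor gene *Ticam1* from 5.54, 5.82 and 5.81 FPKM to 20.96, 21.1 and 21.6 FPKM. The groups of these 3 genes did not overlap, and replicate 1 lay within 1 FPKM of the other PBS libraries in each.

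Of 8 tested genes of other Toll-like receptors, with *Tlr5* listed at 0, 4 (50%) rose and 2 (25%) fell (median 0.84), beside 11.5% and 26.6% of genes with a mean of at least 1 FPKM. Without replicate 1, 4 rose and 3 fell (median 0.53), and under median-ratio scaling and with edgeR 4 rose and 1 fell. *Tlr1*, which pairs with Tlr2 to sense bacterial lipopeptides, rose from 4.70, 6.10 and 5.43 FPKM to 36.4, 36.5 and 36.2 FPKM (2.73). *Tlr2* rose from 78.4, 70.6 and 77.2 FPKM to 216, 211 and 219 FPKM (1.51), and *Tlr3*, a sensor of double-stranded RNA, and *Tlr6* rose by 1.45 and 1.03. *Tlr13*, a sensor of bacterial ribosomal RNA, went from 7.08, 10.8 and 10.5 FPKM to 1.30, 1.64 and 1.69 FPKM (-2.52). *Tlr7* was called lower at -0.60, and at -0.82 without replicate 1, but was not called under median-ratio scaling. *Tlr9* (0.64) was not called with or without replicate 1, and *Tlr8*, under 0.10 FPKM in all 6 libraries, was called lower (-0.63) without replicate 1 alone.

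Of 14 genes of NF-kappaB and its inhibitors, all tested, 10 (71.4%) rose and 0 fell, with a median of 2.30. The shares were 11.5% and 26.6% among all genes with a mean of at least 1 FPKM. Without replicate 1 the counts were 10 and 0 with a median of 2.27. The subunit gene *Rela* and *Ikbkb*, *Chuk* and *Ikbkg*, genes of the kinase complex that acts on the inhibitors, were named after their values were seen and were not called in either fit. Under median-ratio scaling and with edgeR 11 members rose, *Chuk* among them (0.72 and 0.68). *Nfkbiz*, a nuclear IkappaB protein that acts as a coactivator for a set of secondary LPS targets, was at 1.77, 1.96 and 2.16 FPKM with PBS and at 131, 128 and 133 FPKM with LPS. *Nfkbia*, the inhibitor that holds NF-kappaB in the cytoplasm and is itself an NF-kappaB target, was at 45.8, 36.7 and 41.6 FPKM with PBS and at 345, 345 and 356 FPKM with LPS. *Nfkb2*, a subunit gene, was at 10.8, 9.80 and 10.7 FPKM with PBS and at 83.5, 85.9 and 86.0 FPKM with LPS. All 3 genes stood far above their PBS range in every LPS library, with means 66.6-fold, 8.44-fold and 8.16-fold higher. *Bcl3*, another IkappaB family gene, rose by 2.99.

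The promoter of *Nfkbia* is printed because this gene was the list's called member with the largest rise among those with a match to the kappaB motif, the binding sequence of NF-kappaB. The sequence is from RefSeq on GRCm38.p6, chr12:55492598-55492897, minus strand, and covers 250 bases before and 50 after the gene's start. The motif was searched as GGNNTTTCC on both strands, and capitals mark its 2 matches.

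Nfkbia promoter: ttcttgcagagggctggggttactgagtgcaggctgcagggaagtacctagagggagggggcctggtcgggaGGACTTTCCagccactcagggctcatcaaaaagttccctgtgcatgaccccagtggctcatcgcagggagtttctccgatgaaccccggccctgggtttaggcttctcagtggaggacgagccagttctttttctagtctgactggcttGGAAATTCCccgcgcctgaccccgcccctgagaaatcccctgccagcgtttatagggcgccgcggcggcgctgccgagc

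The same letters were found in 5.82% of all 32851 promoters searched, which leave out chromosome 18, and in 6.21% of the 17487 of genes tested. They were found in 8.84% of the 1573 promoters of genes called higher with LPS and in 5.03% of the 3660 of genes called lower. In the list of NF-kappaB genes 10 of 14 members had a promoter in the table, and 6 of their 17 promoters held a match. A gene can have more than 1 promoter, and a match describes the letters only.

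Of 16 feedback inhibitors of the pathway 14 (87.5%) rose and 1 (6.25%) fell, beside 11.5% and 26.6% of genes with a mean of at least 1 FPKM. The median was 3.12, and the counts were 14 and 1 without replicate 1 and under median-ratio scaling. *Tnfaip3*, the gene of the ubiquitin-editing inhibitor A20, was at 1.91, 2.31 and 2.34 FPKM with PBS and at 83.0, 78.5 and 78.0 FPKM with LPS (5.13 ± 0.10, SE). *Cish*, a suppressor of cytokine receptor signalling, was at 0.02, 0 and 0 FPKM with PBS and at 5.19, 5.70 and 5.38 FPKM with LPS (5.70). *Trim30a* and the phosphatase gene *Dusp5* rose by 4.97 and 4.35. In all 4 genes the LPS libraries lay above every PBS library.

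Immediate-early and AP-1 factors mostly rose where they were called. Of 20 members 14 (70%) rose and 3 (15%) fell, beside 11.5% and 26.6% of genes with a mean of at least 1 FPKM. The median was 1.77, and without replicate 1 14 rose and 4 fell. *Myc*, a growth-associated transcription factor, was at 0.34, 0.28 and 0.36 FPKM with PBS and at 82.3, 80.2 and 76.9 FPKM with LPS, a 244-fold higher mean. *Ier3* and the AP-1 subunit gene *Fosl1* rose by 3.22 and 3.13. *Klf4*, a zinc-finger factor of monocyte differentiation, went the other way, from 8.26, 10.6 and 10.2 FPKM to 0.34, 0.47 and 0.43 FPKM (-4.25). The AP-1 motif TGANTCA was found in 0 of 21 promoters of the list, so no promoter of the list was printed. It was found in 7.81% of all promoters searched and in 6.23% of those of genes tested. The share was 8.90% in promoters of genes called higher and 4.92% in those of genes called lower.

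Of 22 cytokine genes 18 (81.8%) rose and 0 fell, beside 11.5% and 26.6% of genes with a mean of at least 1 FPKM. The median was 3.39, and the counts were the same without replicate 1, with a median of 3.27. *Tnf*, the gene of tumour necrosis factor, was already present with PBS at 41.5, 32.0 and 35.9 FPKM and reached 1581, 1567 and 1586 FPKM with LPS. Its mean was 43.2-fold higher, a log2 fold change of 5.44 ± 0.09 (SE; adjusted p = 3.77e-10, limma with Benjamini-Hochberg). *Il6*, the gene of interleukin 6, was at 0.05, 0 and 0 FPKM with PBS and at 103, 97.5 and 99.8 FPKM with LPS, and the PBS level rests on 2 counts over 3 libraries. The colony-stimulating factor genes *Csf3* and *Csf2*, for granulocytes and for granulocytes and macrophages, were at 11.1, 8.75 and 9.71 FPKM and at 1.29, 0.85 and 0.82 FPKM with LPS, and at or below 0.13 FPKM in each PBS library.

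Chemokine genes had 15 of 22 members higher (68.2%) and 1 lower (4.55%), beside 11.5% and 26.6% of genes with a mean of at least 1 FPKM. The median was 3.00, or 3.43 with the 4 members at 0 counts in 1 group set at their bound. Without replicate 1 the counts were 15 and 1 with a median of 3.06. *Cxcl10*, a T cell chemokine of the interferon response, was at 0.30, 0.36 and 0.25 FPKM with PBS and at 79.2, 77.5 and 81.8 FPKM with LPS (7.63). *Ccl2*, a monocyte chemoattractant, was at 0, 0 and 0.06 FPKM with PBS and at 3.93, 3.07 and 3.59 FPKM with LPS. *Ccl7*, a related chemoattractant gene, was at 0 FPKM in the 3 PBS libraries and at 0.11, 0.38 and 0 FPKM with LPS and was not called.

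The type I interferon list had the largest share of rises among the lists of over 10 genes. It had 45 of 47 members higher (95.7%) and 0 lower, beside 11.5% and 26.6% of genes with a mean of at least 1 FPKM. The median was 5.26. Without replicate 1, 44 rose and 0 fell, with a median of 5.20. *Ifnb1*, the gene of interferon beta itself, had 0 counts in the 3 PBS libraries and was at 20.97, 22.4 and 23.5 FPKM with LPS, at least 261-fold higher against a floor of 3 counts over the PBS group. *Isg15*, a ubiquitin-like interferon-response protein gene, was at 0.52, 0.18 and 0.20 FPKM with PBS and at 340, 309 and 323 FPKM with LPS. *Ifit1*, an antiviral RNA-binding protein gene, was at 0.14, 0.07 and 0.16 FPKM with PBS and at 98.5, 99.5 and 92.3 FPKM with LPS, and *Mx2*, an antiviral GTPase gene, rose by 7.89. Each gene was near 0 in all 3 PBS libraries, with *Isg15* highest in replicate 1. Members with near-identical copies, such as *Ifit3* and *Ifit3b* or *Oas1a* and *Oas1g*, share reads and are not given singly.

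The promoter of *Isg15* is printed as that of the called member with the largest rise and a match to the interferon-stimulated response element, the binding sequence of interferon-activated factors. It is from RefSeq on GRCm38.p6, chr4:156200769-156201068, minus strand. The motif was searched as GAAANNGAA on both strands, and capitals mark 3 matches that overlap each other.

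Isg15 promoter: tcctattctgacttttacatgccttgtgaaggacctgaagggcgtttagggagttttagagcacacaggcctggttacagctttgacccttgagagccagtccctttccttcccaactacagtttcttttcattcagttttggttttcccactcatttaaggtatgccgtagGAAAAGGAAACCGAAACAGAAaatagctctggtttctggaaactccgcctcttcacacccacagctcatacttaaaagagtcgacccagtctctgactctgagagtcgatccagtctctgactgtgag

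These letters were found in 8.56% of all promoters searched and in 7.52% of those of genes tested. The share was 11.7% in promoters of genes called higher and 5.90% in those of genes called lower. In the list 23 of the 45 promoters held them, and 35 of 47 members had an entry.

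**Figure D3:**
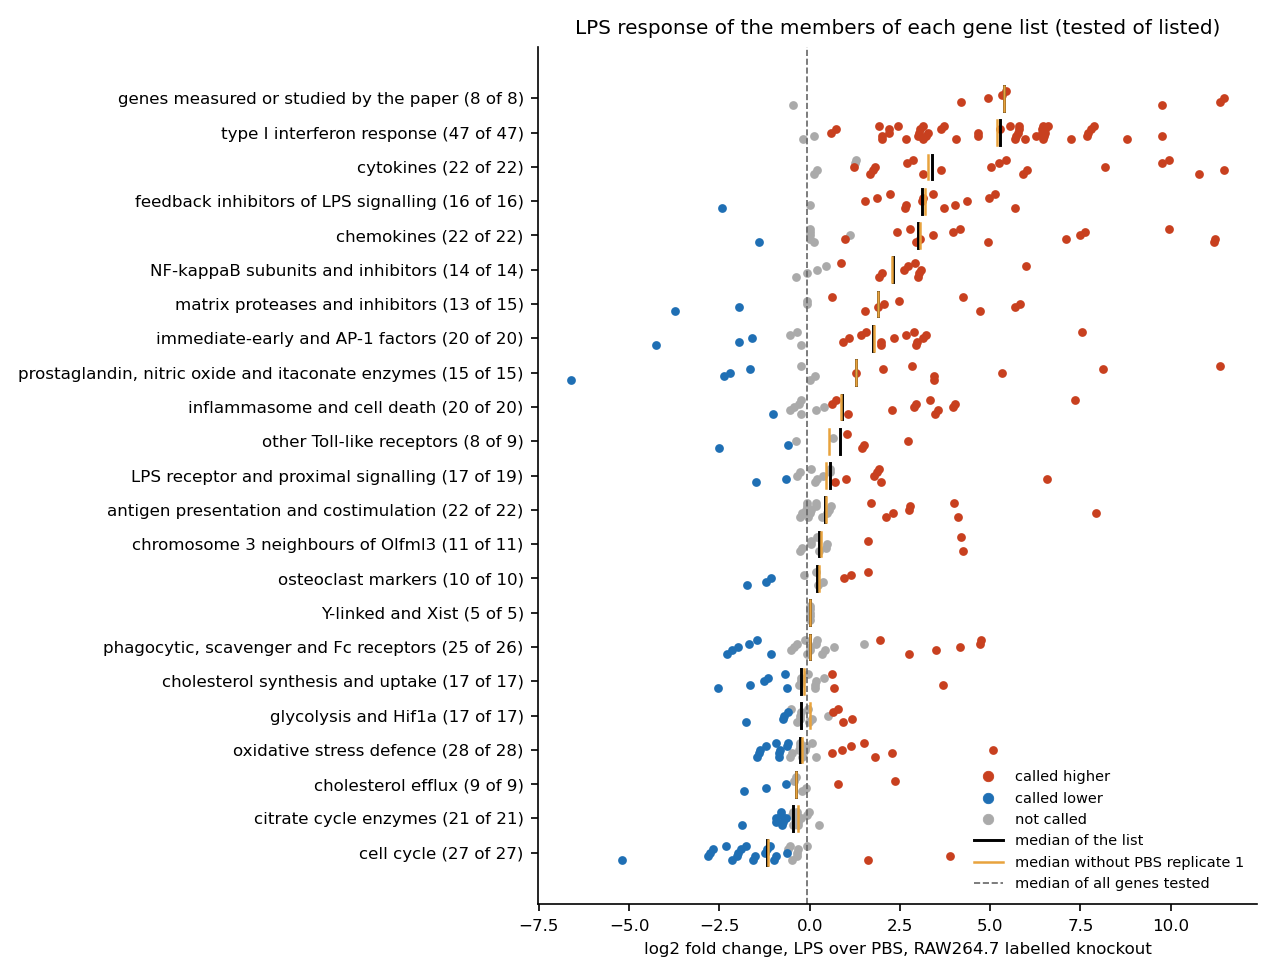
The log2 fold change of LPS over PBS in the cells labelled knockout for each tested member of 23 gene lists, coloured by call, with the median of each list (black), the median without PBS replicate 1 (orange) and the median of all genes tested (dashed, -0.07). The interferon, cytokine and feedback lists lie to the right with medians of 5.26, 3.39 and 3.12, and the cell cycle list lies to the left with a median of -1.17.

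Of 15 enzyme genes of prostaglandins, nitric oxide and itaconate 8 (53.3%) were higher and 4 (26.7%) lower (median 1.28), with 8 and 4 without replicate 1. The higher and lower shares were 11.5% and 26.6% among all genes with a mean of at least 1 FPKM. *Ptgs2*, the inducible cyclooxygenase gene, was at 1.48, 1.57 and 2.29 FPKM with PBS and at 522, 510 and 529 FPKM with LPS, a 292-fold higher mean. *Hpgd*, whose product degrades prostaglandins, was the largest fall on the log2(FPKM + 0.1) scale, as described above. *Nos2*, the inducible nitric oxide synthase gene, was at 0, 0 and 0.06 FPKM with PBS and at 3.91, 5.28 and 4.69 FPKM with LPS (5.33 ± 0.18, SE). The synthesis gene thus stood high and the degradation gene low in every LPS library, and the level of *Nos2* stayed under 6 FPKM.

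Of 21 citrate cycle enzyme genes 0 rose and 8 (38.1%) fell, with a median of -0.47, against 0 and 7 without replicate 1 (median -0.33). Under median-ratio scaling 0 rose and 3 (14.3%) fell (median -0.20), and among all genes with a mean of at least 1 FPKM the falls were 26.6% and 17.9% with the 2 scalings. *Idh1*, the cytosolic isocitrate dehydrogenase gene, went from 38.8, 36.3 and 34.3 FPKM to 9.71, 10.0 and 9.58 FPKM (-1.89 ± 0.07, SE), and *Idh2*, the mitochondrial form, from 104, 87.6 and 75.8 FPKM to 42.8, 49.1 and 46.9 FPKM (-0.93). *Mdh1*, the cytosolic malate dehydrogenase gene, was at 198, 129 and 134 FPKM with PBS and at 77.6, 80.9 and 78.3 FPKM with LPS. These 3 genes were lower in every LPS library and were called under both scalings. *Aco1*, which encodes the cytosolic aconitase, was called lower at -0.80 but not under median-ratio scaling.

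Of 17 glycolysis genes 4 rose and 4 fell (23.5% each), beside 11.5% and 26.6% of genes with a mean of at least 1 FPKM. The counts were 4 and 2 without replicate 1 and 5 and 1 under median-ratio scaling and with edgeR. *Hk2*, an inducible hexokinase gene, was at 25.1, 38.5 and 34.9 FPKM with PBS and at 72.5, 74.9 and 71.0 FPKM with LPS, and *Hk1*, the constitutive form, was at 24.6, 27.0 and 25.8 FPKM with PBS and at 7.47, 8.01 and 7.03 FPKM with LPS. *Hk2* stood above *Hk1* in all 6 libraries. *Slc2a1*, the glucose transporter gene, and *Hif1a*, the oxygen-regulated factor, rose by 0.93 and 0.79, and all 4 genes were called with and without replicate 1 and under both scalings.

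Of 28 oxidative stress defence genes 7 (25.0%) were higher and 10 (35.7%) lower, with 7 and 8 without replicate 1 and 7 and 5 under median-ratio scaling. The shares were 11.5% and 26.6% among all genes with a mean of at least 1 FPKM. *Slc7a11*, which imports cystine for glutathione synthesis, was at 0.52, 0.78 and 0.86 FPKM with PBS and at 27.1, 26.9 and 27.8 FPKM with LPS (5.08 ± 0.14, SE). *Cybb*, a catalytic subunit of the superoxide-producing NADPH oxidase, was at 62.3, 96.0 and 102 FPKM with PBS and at 419, 399 and 414 FPKM with LPS. *Sod2*, the mitochondrial superoxide dismutase gene, and *Mt2*, a metallothionein gene, rose by 1.81 and 1.5 (*Mt2* by 1.76 without replicate 1). Every LPS library lay above every PBS library for all 4.

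Antigen presentation and costimulation genes rose where they were called, 8 of 22 (36.4%) with 0 lower and a median of 0.41. The shares were 11.5% and 26.6% among all genes with a mean of at least 1 FPKM. Without replicate 1, 10 rose with 0 lower. *Cd40*, a costimulatory receptor gene, was at 0.18, 0.18 and 0.14 FPKM with PBS and at 65.3, 65.8 and 64.8 FPKM with LPS, a 392-fold higher mean. *Icam1*, an adhesion receptor gene, was already at 29.3, 26.8 and 29.1 FPKM with PBS and reached 197, 194 and 196 FPKM with LPS. The T cell ligand genes *Icosl* and *Cd80* rose by 4.11 and 4.00. All 4 had LPS libraries clear of the PBS range.

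Phagocytic, scavenger and Fc receptor genes had 6 members higher and 6 lower (24.0% each) of 25 tested, beside 11.5% and 26.6% of genes with a mean of at least 1 FPKM, with a median of 0, against 7 and 6 without replicate 1 and 9 and 5 under median-ratio scaling. *Clec4e*, the gene of a C-type lectin for mycobacterial glycolipid, was at 2.35, 2.26 and 2.93 FPKM with PBS and at 71.4, 67.2 and 70.0 FPKM with LPS (4.74). *Axl*, a receptor for apoptotic cells, rose by 4.73, and *Olr1*, a receptor for oxidised lipoprotein, and the integrin gene *Itgax* rose by 4.16 and 3.49 (*Itgax* by 3.79 without replicate 1) from levels under 0.20 FPKM. Among the members that fell, *Trem2*, a microglial and macrophage lipid receptor named after its values were seen, was at 73.1, 52.5 and 50.4 FPKM with PBS and at 11.3, 12.1 and 12.2 FPKM with LPS (-2.28).

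Matrix proteases and their inhibitors had 9 of 13 tested members higher (69.2%) and 2 lower (15.4%), and 8 and 2 without replicate 1. The shares were 11.5% and 26.6% among all genes with a mean of at least 1 FPKM. The median was 1.89, or 2.59 with 4 members at their bound. *Plaur*, the urokinase receptor gene, rose from 12.3, 8.20 and 9.21 FPKM to 188, 187 and 185 FPKM. *Serpinb2*, a serine protease inhibitor gene, had 0 counts with PBS and 4.90, 4.88 and 5.53 FPKM with LPS, at least 187-fold higher. *Timp1*, an inhibitor of metalloproteinases, went from 0.07, 0 and 0.08 FPKM to 6.68, 9.74 and 8.27 FPKM, and *Mmp9*, a gelatinase gene, from 0.03, 0.02 and 0 FPKM to 0.53, 0.56 and 0.53 FPKM. *Plau*, the urokinase gene, named after its values were seen, lay on the other side, at 68.0, 61.6 and 59.95 FPKM with PBS and at 3.99, 4.81 and 5.35 FPKM with LPS. The receptor and the protease of the urokinase system thus stood in opposite order in every library.

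Cholesterol synthesis genes had 3 of 17 members higher (17.6%) and 6 lower (35.3%), beside 11.5% and 26.6% of genes with a mean of at least 1 FPKM, with 1 and 5 without replicate 1 and 4 and 4 under median-ratio scaling. The late-step reductase gene *Dhcr7* went from 12.6, 13.7 and 13.5 FPKM to 2.44, 2.00 and 2.18 FPKM (-2.54 ± 0.09, SE), and *Mvk*, the mevalonate kinase gene, had -1.27. *Ch25h*, which makes 25-hydroxycholesterol, had 0 counts with PBS and 1.12, 1.2 and 1.30 FPKM with LPS, at least 26.1-fold higher. In the efflux list of 9 genes *Abca1* and *Nr1h3* rose and *Abcg1*, *Srebf1* and *Npc1* fell, in the same numbers without replicate 1. *Abcg1*, a sterol exporter gene, went from 15.7, 17.1 and 16.5 FPKM to 4.93, 3.92 and 4.96 FPKM (-1.82), and *Abca1*, another exporter gene, from 0.18, 0.77 and 0.67 FPKM to 2.68, 2.67 and 3.25 FPKM (2.37, and 1.85 without replicate 1). *Srebf1*, a lipid synthesis factor, had -1.2 and *Nr1h3*, a sterol-sensing nuclear receptor gene, 0.78. *Npc1*, a lysosomal sterol carrier gene, had -0.66 and was not called under median-ratio scaling. The calls of both *Nr1h3* and *Npc1* were lost in several settings that left out 1 library. *Nr1h2*, *Mylip*, *Npc2* and *Apoe* were not called, at -0.44, -0.37, -0.20 and -0.09, or at -0.17, -0.11, 0.06 and 0.17 under median-ratio scaling.

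Of 27 cell cycle genes 2 rose and 18 (66.7%) fell, with a median of -1.17, against 26.6% lower among genes with a mean of at least 1 FPKM, and the counts were 2 and 19 without replicate 1 and 2 and 17 under median-ratio scaling, where the median was -0.90. *E2f2* was at 14.5, 15.3 and 13.6 FPKM with PBS and at 0.42, 0.20 and 0.30 FPKM with LPS, and *E2f1*, a related factor, was at 18.9, 17.3 and 16.7 FPKM with PBS and at 2.21, 2.48 and 2.95 FPKM with LPS. *Ccnd1*, the gene of a cyclin of G1 phase, was at 71.3, 87.2 and 91.4 FPKM with PBS and at 11.6, 12.01 and 11.4 FPKM with LPS (-2.82). *Ccnd2*, another cyclin gene of this phase, rose from 0.17, 0.09 and 0.04 FPKM to 2.72, 2.79 and 2.80 FPKM (3.89). *Mki67*, a proliferation marker named after its values were seen, was at 65.4, 160 and 168 FPKM with PBS and at 77.8, 80.9 and 78.7 FPKM with LPS. Its PBS replicate 1 lay below the LPS libraries and replicates 2 and 3 above them, and it was called lower (-1.05) without replicate 1 alone. The share of cycling cells was not measured.

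Inflammasome and cell death genes had 12 of 20 members higher (60%) and 1 lower (5%), beside 11.5% and 26.6% of genes with a mean of at least 1 FPKM. The median was 0.90, and the counts were 12 and 1 without replicate 1 and under median-ratio scaling. *Fas*, a death receptor gene, was at 0.09, 0.12 and 0.24 FPKM with PBS and at 39.0, 39.1 and 39.4 FPKM with LPS, a 261-fold higher mean. *Casp4*, a caspase that senses intracellular LPS, rose from 2.16, 1.38 and 1.47 FPKM to 21.2, 19.3 and 20.8 FPKM (3.56). The survival genes *Bcl2a1b* and *Bcl2a1d*, which are near-identical copies that share reads, rose by 4.03 and 3.96 (*Bcl2a1b* by 4.35 without replicate 1).

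Osteoclast markers, of interest because RAW264.7 cells can form osteoclasts, had 3 of 10 members higher and 3 lower (30.0% each), with and without replicate 1, beside 11.5% and 26.6% of genes with a mean of at least 1 FPKM. *Dcstamp*, a fusion protein gene, was at 6.79, 6.25 and 6.06 FPKM with PBS and at 14.0, 13.4 and 15.3 FPKM with LPS, and *Ocstamp* and *Acp5* rose by 1.60 and 0.96 (*Ocstamp* by 1.86 without replicate 1). *Nfatc1*, the leading factor of osteoclast formation, was at 30.3, 43.2 and 45.3 FPKM with PBS and at 15.9, 19.2 and 15.6 FPKM with LPS, and *Tnfrsf11a*, the RANK receptor gene, and *Atp6v0d2* had -1.07 and -1.75 (*Atp6v0d2* -1.49 without replicate 1). *Ctsk*, *Oscar*, *Calcr* and *Itgb3* were under 0.50 FPKM in all 6 libraries and were not called. Of 8 genes that the paper assayed, 7 rose and 0 fell with and without replicate 1, and *Aifm1*, which encodes a mitochondrial flavoprotein, was at 32.7, 30.6 and 28.1 FPKM with PBS and at 20.2, 23.4 and 22.6 FPKM with LPS, a log2 fold change of -0.46 that was short of the 1.5-fold threshold.

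The response was then compared with that of wild-type RAW264.7 cells by testing the difference of the 2 log2 fold changes in the same fit; the lines also differ in level with PBS, macrophage markers included. Of 26740 genes 521 differed, with 242 (0.905%) higher in the cells labelled knockout than in wild type and 279 (1.04%) lower. Without PBS replicate 1, 904 genes differed, 341 higher and 563 lower, which is over 1.5 times as many. Of the 521 genes 504 (96.7%) were also called in the same direction without replicate 1, 17 were not, and 400 were added, 298 of them lower. With edgeR on counts 441 genes differed, and 302 of the 521 (58.0%) were called in the same direction while 219 were not. Leaving out replicate 1 also moved the median difference in genes over 8000 exonic bases from 0.09 to -0.11 and in those up to 1000 bases from -0.13 to 0.03.

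In the chemokine list 3 of 22 differences were called higher and 4 lower, or 5 and 4 without replicate 1, and in the cytokine list 4 were higher and 5 lower, or 6 and 5. With LPS, *Csf2* was at 1.29, 0.85 and 0.82 FPKM in them and at 55.9, 54.8 and 53.8 FPKM in wild type, *Csf3* at 11.1, 8.75 and 9.71 FPKM against 280, 270 and 294 FPKM, and *Mmp9* at 0.53, 0.56 and 0.53 FPKM against 10.1, 8.68 and 9.93 FPKM. All 3 were at or below 0.19 FPKM in every PBS library of both kinds. The differences of log2 fold change were -5.46, -5.18 and -3.79, with adjusted p of 0.00135, 2.00e-04 and 6.54e-06 (limma, Benjamini-Hochberg). *Ccl2* reached 117, 113 and 118 FPKM in wild type with LPS, and *Ccl7* reached 9.75, 10.3 and 9.52 FPKM, against 0.11, 0.38 and 0 FPKM in the cells labelled knockout. Their differences were -2.09 and -5.22. *Nos2* showed the same order, at 22.7, 23.5 and 23.7 FPKM in wild type with LPS, with a difference of -2.41. Without replicate 1 these 6 genes were called as well, at -5.60, -5.07, -3.71, -2.20, -5.22 and -2.52 in the order named. With edgeR on counts *Csf3* alone of the 6 was called (-5.87). *Csf2*, *Mmp9*, *Ccl7* and *Nos2* had -4.92, -3.64, -4.01 and -3.08 and were not called, and *Ccl2* had -0.04. The mean of *Ccl2* was 176.5-fold higher with LPS in the cells labelled knockout and 139-fold higher in wild type. The 176.5-fold rests on 1 count over the 3 PBS libraries. Neither the order of these folds nor the sign of the difference is therefore resolved.

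Other genes rose more in the cells labelled knockout. *Il6* reached 24.8, 24.2 and 25.4 FPKM in wild type with LPS, below the 97.5 FPKM of the lowest library labelled knockout, and differed by 2.19, or 2.39 without replicate 1; edgeR gave 2.63 and did not call it. *Itgb8*, an integrin subunit gene, was at 1.00, 1.10 and 1.25 FPKM and *Prdm1*, a transcriptional repressor gene, at 0.92, 1.16 and 1.33 FPKM in the LPS libraries labelled knockout, while both were at or below 0.02 FPKM in the wild-type libraries and with PBS. They differed by 3.55 and 3.44, and edgeR called neither. In the interferon list 15 of 47 differences were higher and 8 lower, or 17 and 8 without replicate 1, and for *Isg15* the difference was 2.26, where wild type started at 2.56, 2.03 and 2.27 FPKM with PBS and reached 430, 430 and 428 FPKM. The LPS level of *Isg15* was thus lower in the cells labelled knockout and the fold higher.

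Some differences go with what each line expressed with PBS, and with edgeR *P2ry12*, *Tox2* and *Chst1* were not called. *P2ry12* was at 5.93 to 8.04 FPKM with PBS in the cells labelled knockout and at 0.18 to 0.19 FPKM in wild type, and its difference was -3.65, against -0.10 with edgeR. *Tox2*, a gene of an HMG-box protein, was at 0 FPKM in all 6 libraries labelled knockout and fell in wild type from 3.21, 3.44 and 3.62 FPKM to 0.16, 0.10 and 0.12 FPKM, so its difference of 3.97 comes from the wild-type fall. *Chst1*, a sulfotransferase gene, was at or below 0.16 FPKM in the libraries labelled knockout and at 9.78, 9.08 and 11.5 FPKM in wild type with PBS, with a difference of 3.42, against -0.36 with edgeR. *Gm15433* was at 0 FPKM in wild type with PBS and at 0.54, 1.45 and 1.31 FPKM in the cells labelled knockout. Its difference was -3.99, and edgeR called it too, at -7.57.

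**Figure D4:**
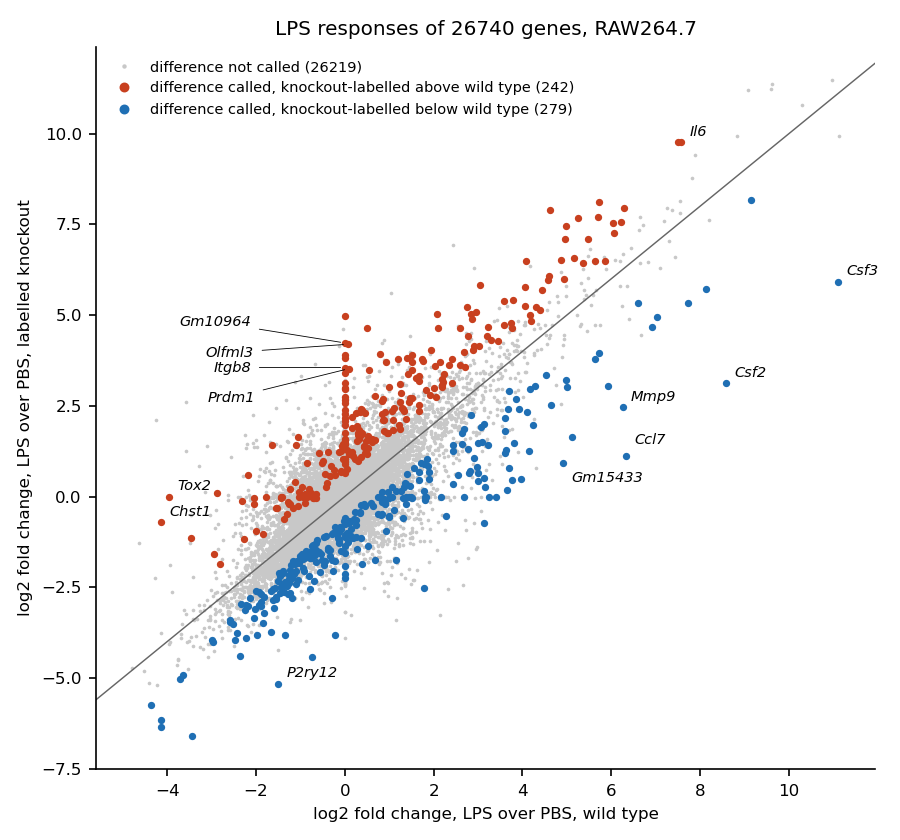
The log2 fold change of LPS over PBS in wild-type RAW264.7 cells (horizontal) and in cells labelled knockout (vertical) for 26740 genes, with the line of equality; red and blue points are the 242 and 279 genes whose difference was called. *Csf3*, *Csf2* and *Mmp9* lie far below the line, with differences of -5.18, -5.46 and -3.79, and *Il6* above it at 2.19.

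*Olfml3* itself was counted in the libraries labelled knockout and rose with LPS. It was at 0.65, 1.01 and 1.19 FPKM with PBS and at 18.9, 18.8 and 18.3 FPKM with LPS, from 271 and 4264 counts over 3 libraries each. Wild type was at 0.19, 0.15 and 0.15 FPKM with PBS and at 0.13, 0.13 and 0.29 FPKM with LPS. The 6 libraries labelled knockout, replicate 1 included, were thus above the 6 wild-type libraries, and the LPS libraries were the highest. The log2 fold change was 4.20 ± 0.24 (SE; adjusted p = 6.52e-07, limma with Benjamini-Hochberg), and 3.97 without replicate 1. The difference from wild type was 4.13, or 3.91 without replicate 1 and 4.14 with edgeR, which called it. Counts do not say whether the transcript carries an edit.

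*Gm10964*, a gene annotated on the plus strand of GRCm38 at chr3:103739366-103746376, lies beside *Olfml3* (chr3:103722222-103738001, minus strand) and overlaps *Hipk1* (chr3:103739815-103791563, minus strand). It was at 7.08, 6.24 and 9.90 FPKM with PBS and at 132, 140 and 163 FPKM with LPS in the cells labelled knockout, and at 0 FPKM in the 6 wild-type libraries. Whether counting kept the strands apart is not stated, so reads of *Hipk1* and *Gm10964* may be mixed. *Hipk1*, a protein kinase gene, was at 13.9, 25.4 and 25.4 FPKM with PBS and at 21.3, 21.3 and 20.9 FPKM with LPS and was not called. In the wild-type libraries, where *Gm10964* was at 0, *Hipk1* was at 15.57, 14.82 and 15.3 FPKM with PBS. With LPS it was at 13.55, 12.29 and 13.86 FPKM there. Mixing of the reads was not tested. *Gm10964* rose by 4.23 and by 4.18 without replicate 1, and with 0 counts in wild type its difference of 4.23 restates that rise; edgeR did not call the difference.

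Of 11 neighbouring genes on chromosome 3, *Olfml3* and *Gm10964* included, 3 (27.3%) rose and 0 fell with and without replicate 1, with a median of 0.26, and 4 rose under median-ratio scaling and with edgeR. The share higher was 11.5% among all genes with a mean of at least 1 FPKM. The remaining riser was *Rsbn1*, at 3.94, 11.4 and 12.1 FPKM with PBS and 25.3, 26.4 and 23.8 FPKM with LPS (1.61, and 1.09 without replicate 1). It rose in wild type too, from 3.02, 3.12 and 3.23 FPKM to 14.8, 13.7 and 12.96 FPKM, and the difference of -0.50 was not called with all libraries. Over the 11 genes 2 differences from wild type were called higher and 0 lower, or 2 higher and 1 lower without replicate 1. The LPS response of the other 8 genes was not called in limma with all libraries or without replicate 1.

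**Figure D5:**
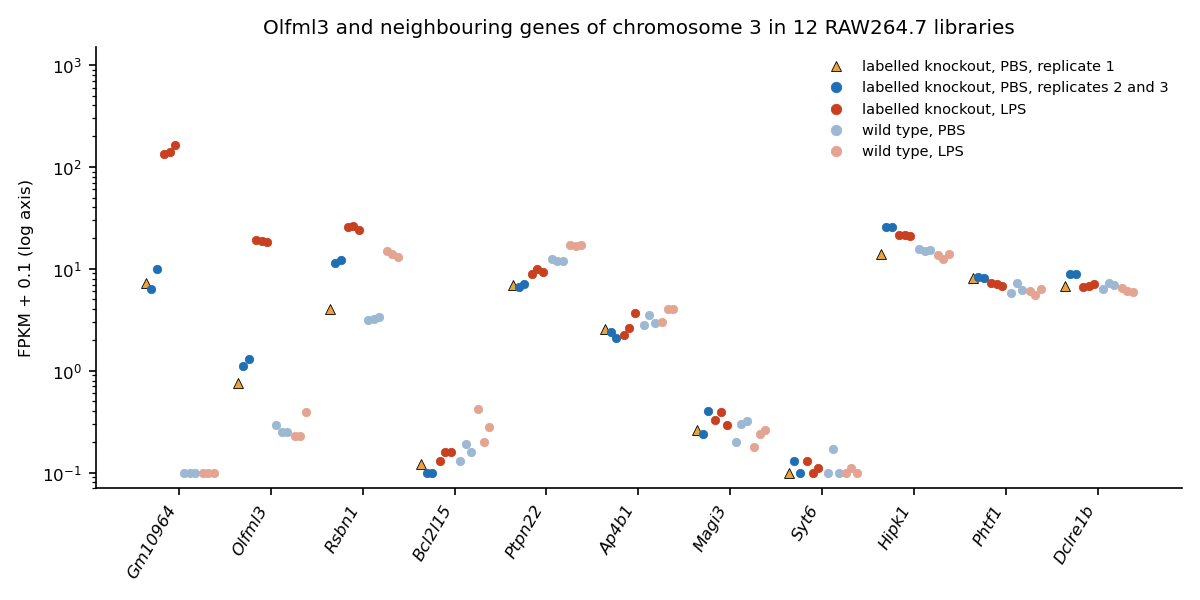
FPKM plus 0.1 on a log axis in each of the 12 RAW264.7 libraries for *Olfml3* and 10 neighbouring genes of chromosome 3, ordered by log2 fold change in the cells labelled knockout; triangles mark PBS replicate 1. *Olfml3* is at 18.3 to 18.9 FPKM and *Gm10964* at 132 to 163 FPKM in the LPS libraries labelled knockout, and both are lower in all other groups.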

How the data were processed

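RNA of 12 RAW264.7 libraries, 4 groups of 3, was read from a deposited file that holds counts and FPKM made by the authors, with the exonic gene size in bases; the submitters name mm10, but coordinates in the file differ from GRCm38, so positions and sequences were taken from GENCODE and RefSeq on GRCm38. The file of bone marrow macrophages was not used. Groups follow the titles. Total counts ran from 11638273 to 16478616 per library. The deposited FPKM was checked against counts, size and total, and 99.9% of 122438 values lay within 1%.

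Genes above 0 in at least 1 library were tested with limma 3.58.1 in R 4.3.3 (files read with data.table, version 1.17.8) on log2(FPKM + 0.1), with 4 group means, default moderation (8 residual and 1.43 prior degrees of freedom) and Benjamini-Hochberg adjustment. Log2 fold changes are differences of group means on that scale, the SE is that of the fit, and fold values are ratios of mean FPKM. Alternatives were edgeR 4.0.16, DESeq2 1.42.0, pseudocounts of 0.01 and 1, filters, median-ratio scaling, a replicate block and leaving out each library; the combinations of edgeR or median-ratio scaling without PBS replicate 1 were chosen after the data were seen.

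Named genes are the 12 largest called rises and falls whose libraries do not overlap, up to 4 called members of each of 23 lists by size of change, lists of up to 10 members in full, the 6 largest called differences from wild type in each direction, the 8 genes farthest above and below in PBS replicate 1 among those with at least 10 FPKM in 1 of the 3 PBS libraries, the genes the paper measured and the Y-linked genes. Of the genes that this rule names, 2 are not reported here. Other genes were named for their role after their values were seen. Members and lists were chosen with earlier results of these data known.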

Additional observations from a re-analysis of the deposited data

Results flagged for a closer look

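These results are given a closer look because the LPS response differed between cells labelled knockout and wild type in a test of the difference itself (limma with Benjamini-Hochberg). The difference was called in 521 genes, of which edgeR on counts called 302 (58.0%) in the same direction. Among those named, it was positive for *Gm10964* (4.23), *Olfml3* (4.13), *Tox2* (3.97), *Itgb8* (3.55), *Prdm1* (3.44) and *Chst1* (3.42). It was negative for *Csf2* (-5.46), *Ccl7* (-5.22), *Csf3* (-5.18), *Gm15433* (-3.99), *Mmp9* (-3.79), *P2ry12* (-3.65) and *Ccl2* (-2.09). Of these 13 genes edgeR called *Olfml3*, *Csf3* and *Gm15433* and did not call the other 10. The edgeR value was -0.04 for *Ccl2*, -0.36 for *Chst1* and -0.10 for *P2ry12*, far from the limma values. These 3 genes lie near 0 in some groups, and the cause of the gap was not tested. *Gm10964* had 0 counts in the 6 wild-type libraries, so its difference restates its rise. *Gm15433* had 0 counts in the 3 wild-type PBS libraries, and its difference was -7.57 with edgeR against -3.99 with limma. *Tox2* was listed at 0 FPKM in the 6 libraries labelled knockout and could not fall there. *Ccl7* rests on 0 counts with PBS and on LPS values of 0.11, 0.38 and 0 FPKM. Edit, clone and time in culture cannot be told apart for any of these genes, and no technical source was tested.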

How the results depend on the processing

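The LPS response of the cells labelled knockout had 5899 called genes and stayed within 1.5 times of that in all 20 alternatives, from 4314 with a pseudocount of 1 to 7570 with adjusted p alone. It had 5176 with edgeR, 5317 with DESeq2, and 5501 to 5920 when each library was left out in turn. Of the calls, 33.8% were rises with FPKM, 51.7% with median-ratio scaling, 46.5% with edgeR and 50.5% with DESeq2. The response of wild type had 4899 calls, and 4513 to 4569 when each library was left out.

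The difference of the responses had 521 calls, 400 to 904 when each library was left out in turn. Without PBS replicate 1 it had 904 with limma, 888 with edgeR and 870 with median-ratio scaling; the cause was not tested. Other settings gave 353 to 569, with 441 for edgeR, of which 302 are among the 521.

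Among the 143 named genes, leaving out PBS replicate 1 turned *Gm38244* from 0.12 to -0.75 (-0.75 to 0.57 when each library was left out in turn); the cause was not tested. *Tlr7*, *Npc1* and *Nr1h3* lost their calls in several settings that left out 1 library and with a pseudocount of 1, and *Tlr7* and *Npc1* also with median-ratio scaling, edgeR and DESeq2. *Aco1* lost its call with median-ratio scaling, edgeR and DESeq2, and *Acp5* with a pseudocount of 1. *Ccl7*, *Chst1*, *Mir99a* and *Gm15433* were not called with all libraries in limma and were called with edgeR and DESeq2, *Hipk2* with edgeR and *Tlr9* with DESeq2. Limma also called *Ccl7* without LPS replicate 3 (1.67), *Chst1* without PBS replicate 3 (-1.07), *Gm11702* without PBS replicate 2, *Mir703* without PBS replicate 3, *Gm15433* with median-ratio scaling, and *Tlr8* and *Gm23301* without PBS replicate 1. The share of kappaB matches among promoters of genes that rose went from 8.84% to 9.81% with a mean of at least 1 FPKM. A replicate block gave 5729 calls for the response and 367 for the difference, and libraries that share a number did not correlate (-0.01 to 0.00).

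Limits: 3 libraries per group, which the paper calls biological replicates without describing the cultures, 1 line whose clone is not stated, 1 dose and 1 time. Genes at a few counts per library are poorly resolved, and folds against groups near 0 depend on the pseudocount.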
